A study of Mus musculus with 4 samples.

Results

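The 9 receptor genes described here are those of the formyl peptide receptors Fpr1 and Fpr2, the chemokine receptors Ccr1, Ccr2, Cx3cr1 and Cxcr4, the atypical receptor Ccrl2, the complement C5a receptor C5ar1 and the chemerin receptor Cmklr1. They were selected on the group values of a transcript table with 53139 loci, as chemoattractant receptors whose levels in both groups were already known. All 9 were found in the table by their gene identifiers, and all 9 were among the 12648 loci that the authors had tested. The cells were mouse macrophages taken from MCA fibrosarcomas, labelled as cell line 9609 parent and genotype WT in every sample. In culture, 2 samples received MEK1-hi exosomes and 2 samples received MEK1-low (GFP) exosomes. Exosomes are small vesicles that cells release, and MEK1 is a kinase that phosphorylates ERK. The labels do not give the cells that made the exosomes, the length of treatment or whether samples came from separate mice, and no untreated macrophages were among the samples. GFP is named only on the MEK1-low label, so MEK1 content and that difference cannot be told apart.

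Chemoattractant receptors are G protein-coupled receptors through which macrophages sense a gradient and move along it. Formyl peptide receptors recognise peptides that begin with N-formyl methionine, as bacteria and mitochondria make them. Chemokine receptors recognise small secreted proteins that guide leukocytes, and C5ar1 recognises the complement fragment C5a. On binding, most of them act through inhibitory G proteins, phosphoinositide 3-kinase gamma and Src family kinases, and arrestins end the signal.

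The values are FPKM (fragments per kilobase of transcript, scaled to library size), with a single group value per locus from the authors, so that no SD between samples can be given. Each ratio is MEK1-hi divided by MEK1-low, and a log2 ratio below 0 means a lower value with MEK1-hi exosomes. A locus was called where the q-value of the authors' Cuffdiff test was under 0.05. Because the receptors were picked with this contrast known, their p and q describe them and support nothing further. As to the labelled cell type, all 10 macrophage markers checked were tested, with a summed level of 20457 FPKM with MEK1-hi and 19346 FPKM with MEK1-low exosomes, most of it from Lyz2. Among all loci tested, 0.751% rose and 1.69% fell by Cuffdiff, with 3.53% higher and 5.12% lower at an unadjusted p under 0.05. For the macrophage markers, 1 rose and 0 fell, with 2 higher and 0 lower at that unadjusted Cuffdiff threshold. The one that rose was Mrc1, a mannose receptor, at 29.9 FPKM with MEK1-hi and 17.5 FPKM with MEK1-low exosomes (log2 ratio 0.77, q = 0.00349 in the authors' deposited table). Without regard to a call, 8 of the 10 had a higher and 2 a lower value with MEK1-hi exosomes, the lower ones being Csf1r (log2 ratio -0.35) and Adgre1 (log2 ratio -0.28). FPKM hold no read counts, and the depth behind each value is therefore unknown.

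Transcripts of 4 receptors, Fpr1, the joined locus of Fpr2, Ccrl2 and Cxcr4, fell with MEK1-hi exosomes, and none of the 9 rose in the authors' deposited table. The other 5 were not called. At an unadjusted p under 0.05 in that Cuffdiff table, 5 were lower and 1 was higher. Of all loci tested, 2.44% were called, 1.69% lower and 0.751% higher, while 5.12% were lower and 3.53% higher at an unadjusted p under 0.05, and nothing is read from the receptors' share since the contrast chose them. The median log2 ratio was -0.42 over the 9 receptors and 0.00 over all loci tested.

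The sequences just before the start sites of the 4 receptor genes that fell are shown here because these are the receptor genes that were called, and because Fpr1 and Fpr2 face away from each other with start sites only 3884 bases apart. Each is the 250 bases upstream of a start site from RefSeq (build GRCm38.p6), written from 5′ to 3′ on the gene's own strand. Ccrl2 had 3 such windows, and the one nearest the gene start in GENCODE M21 was taken. Capitals mark a match to TATAAA in Fpr1 and Cxcr4, to TATAAA and, nearest the start, GAGGAA on the opposite strand in Fpr2, and to the NF-kB consensus in Ccrl2.
Fpr1, chr17:17883940-17884189, minus strand: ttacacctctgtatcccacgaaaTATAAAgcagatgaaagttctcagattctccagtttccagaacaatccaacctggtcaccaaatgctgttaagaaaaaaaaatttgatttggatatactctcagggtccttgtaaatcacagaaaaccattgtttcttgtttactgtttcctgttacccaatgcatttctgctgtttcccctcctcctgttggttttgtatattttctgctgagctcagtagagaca
Fpr2, chr17:17887574-17887823, plus strand: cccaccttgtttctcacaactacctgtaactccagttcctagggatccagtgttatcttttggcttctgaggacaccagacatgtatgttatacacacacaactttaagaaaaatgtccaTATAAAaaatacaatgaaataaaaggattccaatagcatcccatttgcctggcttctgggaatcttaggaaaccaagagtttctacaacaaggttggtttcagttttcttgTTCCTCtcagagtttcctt
Ccrl2, chr9:111057519-111057768, minus strand: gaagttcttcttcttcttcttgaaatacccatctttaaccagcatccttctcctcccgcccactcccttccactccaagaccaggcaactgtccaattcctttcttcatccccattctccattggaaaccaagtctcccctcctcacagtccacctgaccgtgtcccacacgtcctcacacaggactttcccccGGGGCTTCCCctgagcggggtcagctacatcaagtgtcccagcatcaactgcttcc
Cxcr4, chr1:128592300-128592549, minus strand: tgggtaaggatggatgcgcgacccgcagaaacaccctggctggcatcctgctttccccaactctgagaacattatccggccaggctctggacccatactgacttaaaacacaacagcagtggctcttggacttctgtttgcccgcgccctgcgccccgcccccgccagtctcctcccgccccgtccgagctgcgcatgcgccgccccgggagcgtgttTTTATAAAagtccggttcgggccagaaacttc
Besides the NF-kB consensus and TATAAA, known from the TATA box, the motifs searched on both strands were GAGGAA, a core of ETS factor sites, and TGANTCA, the site of AP-1. The motif TTNNGCAA of C/EBP factors was searched too, as was GAAANNGAAA of the interferon-stimulated response element. In Cxcr4, TATAAA lay 30 bases before the start and overlapped a further match on the opposite strand at 32 bases. In Fpr1 and Fpr2 it lay 227 and 130 bases before the start. The NF-kB match of Ccrl2 began 56 bases before the start, and Ccr1, which was not called, also held one, 74 bases before its start. Among all 32851 upstream windows of this length, 7.25% held an NF-kB match, 12.4% held TATAAA, 23.3% held GAGGAA, 6.75% held TGANTCA, 9.56% held TTNNGCAA and 2.98% held GAAANNGAAA. Of the 9 receptor windows, 2 held an NF-kB match, 3 held TATAAA, 3 held GAGGAA and 0 held any of the other 3 motifs. The windows of Fpr1 and Fpr2 were poor in G and C, with 38.4% and 38.8%, against a median of 52.4% over all windows and 61.2% in Cxcr4.

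Both formyl peptide receptor loci had the lowest ratios of the 9. Fpr1, the receptor of highest affinity for formylated peptides, stood at 9.22 FPKM with MEK1-hi and 40.8 FPKM with MEK1-low exosomes, a 4.43-fold lower value and a log2 ratio of -2.15 (q = 0.00349 in the authors' deposited table). The locus of Fpr2, which also binds annexin A1 and serum amyloid A, stood at 4.97 FPKM with MEK1-hi and 28.3 FPKM with MEK1-low exosomes, a 5.70-fold lower value and a log2 ratio of -2.51 (q = 0.00349 in the authors' deposited table). Ordered from the lowest ratio upward among 11777 loci that were tested, reached 1 FPKM in a group and were above 0 in both, the Fpr2 locus was number 19 and Fpr1 number 25. Together they held 14.2 FPKM with MEK1-hi and 69.1 FPKM with MEK1-low exosomes, which was 2.62% of the summed level of the 9 receptors with MEK1-hi and 11.1% with MEK1-low exosomes. The deposited p of both, 5e-05, was the smallest in the table and was shared by 181 loci, so it does not rank them.

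**Figure D1:**
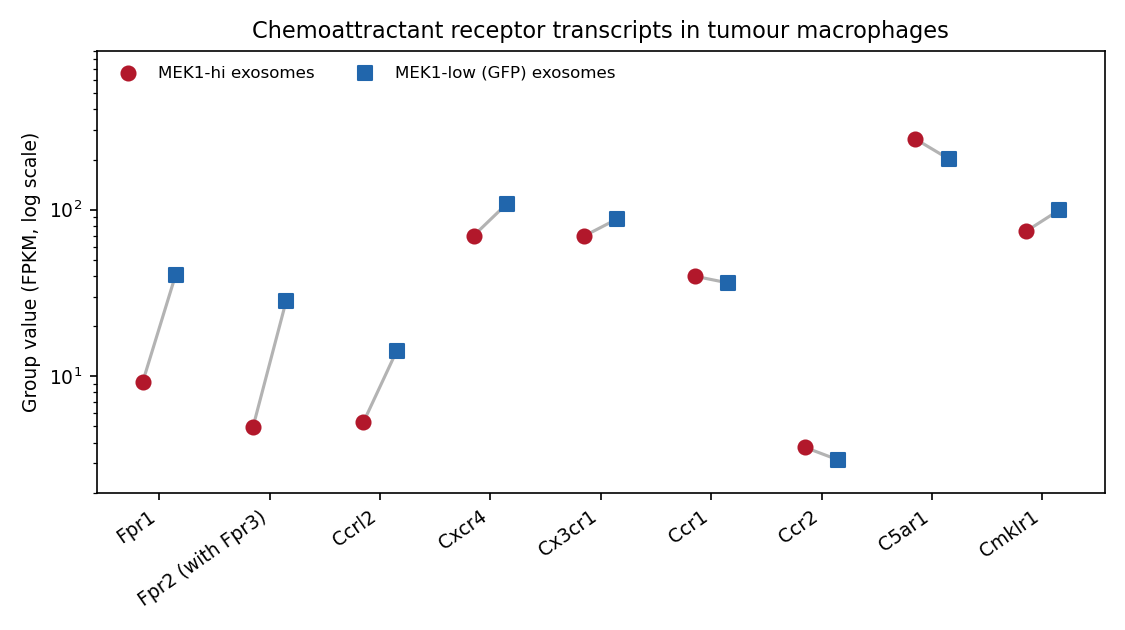
Group values of the 9 receptor loci in FPKM on a log scale, with MEK1-hi exosomes (circles, left of each pair) and MEK1-low (GFP) exosomes (squares, right), 1 value per group and no error bars. Fpr1 stands at 9.22 against 40.8 FPKM and the Fpr2 locus at 4.97 against 28.3 FPKM, while Ccr1 and Ccr2 lie close together in both groups.

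The value of Fpr2 is that of a locus which the authors' table joins with Fpr3, a close relative, and this single value cannot be divided between the pair here. The joined locus spans 17887824 to 17971677 on chromosome 17. In GENCODE M21, Fpr1 lies on chromosome 17 from 17876471 to 17883940 on the minus strand, and its coding sequence of 1092 bases sits in 1 of its 2 exons. Fpr2 lies from 17887824 to 17893952 on the plus strand and overlaps Fpr3, whose leading exon lies within that of Fpr2. The coding sequences of Fpr2 and Fpr3 were 88.1% identical, those of Fpr1 and Fpr2 66.4%. Of 1295 windows of 100 bases in Fpr2 transcripts, 12.3% also occurred in a neighbouring pseudogene, Gm5966, which is a share of sequence and not the size of an error in the level. No other gene, Fpr3 included, held any of these Fpr2 windows. None of the 1225 windows of Fpr1 occurred in another gene. The other formyl peptide receptor genes of the mouse, Fpr-rs3, Fpr-rs4, Fpr-rs6 and Fpr-rs7, were listed at 0 in both groups.

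Ccrl2, an atypical receptor that binds chemerin without signalling and can present it to Cmklr1, fell as well. Its level was 5.30 FPKM with MEK1-hi and 14.1 FPKM with MEK1-low exosomes, a 2.67-fold lower value and a log2 ratio of -1.42 (q = 0.00349 in the authors' deposited table), number 81 from the lowest. Cmklr1, the signalling receptor for chemerin, stood at 74.1 FPKM with MEK1-hi and 99.3 FPKM with MEK1-low exosomes and was not called (log2 ratio -0.42, p = 0.0033, q = 0.103 in the authors' deposited table). The level of Cmklr1 was thus 14.0 times that of Ccrl2 with MEK1-hi and 7.02 times with MEK1-low exosomes. Rarres2, the gene of chemerin itself, stood at 0.0551 FPKM with MEK1-hi exosomes and was listed at 0 with MEK1-low exosomes, and it was not tested.

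Cxcr4, the receptor for Cxcl12 and also for macrophage migration inhibitory factor, fell by a smaller factor. It stood at 69.97 FPKM with MEK1-hi and 108.8 FPKM with MEK1-low exosomes, a 1.55-fold lower value and a log2 ratio of -0.64 (q = 0.00636 in the authors' deposited table). This call ended where an absolute log2 ratio of at least 1 was also required. Its ligand genes were not called: Cxcl12 stood at 0.930 FPKM with MEK1-hi and 0.788 FPKM with MEK1-low exosomes, and Mif at 58.5 FPKM with MEK1-hi and 63.2 FPKM with MEK1-low exosomes (each with q = 0.999 in the authors' deposited table).

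The remaining chemokine receptors were not called. Cx3cr1, the receptor for fractalkine and a marker of patrolling monocytes and many tissue macrophages, stood at 69.5 FPKM with MEK1-hi and 88.1 FPKM with MEK1-low exosomes (log2 ratio -0.34, q = 0.647 in the authors' deposited table). Ccr1, a receptor for Ccl3, Ccl5, Ccl6, Ccl7 and Ccl9, stood at 39.9 FPKM with MEK1-hi and 36.4 FPKM with MEK1-low exosomes (log2 ratio 0.13, q = 0.999 in the authors' deposited table). Ccr2, which brings inflammatory monocytes out of the bone marrow towards Ccl2 and Ccl7, was the lowest of the 9 in both groups, at 3.74 FPKM with MEK1-hi and 3.15 FPKM with MEK1-low exosomes (log2 ratio 0.25, q = 0.982 in the authors' deposited table). In GENCODE M21, 9 other genes overlap the span of Cx3cr1 at least in part, 6 of them on the opposite strand. No source used here gives the strand setting of the counting.

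C5ar1, the receptor for the anaphylatoxin C5a, had the highest level of the 9 in both groups. It stood at 265.7 FPKM with MEK1-hi and 202.1 FPKM with MEK1-low exosomes, a log2 ratio of 0.39 that did not pass over all loci tested (p = 0.0406, q = 0.515 in the authors' deposited table). In order of level, C5ar1 was followed by Cmklr1, Cxcr4, Cx3cr1 and Ccr1 with MEK1-hi exosomes, then by Fpr1, Ccrl2, the Fpr2 locus and Ccr2. With MEK1-low exosomes the order was C5ar1, Cxcr4, Cmklr1, Cx3cr1, Fpr1, Ccr1, the Fpr2 locus, Ccrl2 and Ccr2. Fpr1 thus stood at 0.231 times the level of Ccr1 with MEK1-hi and at 1.12 times with MEK1-low exosomes. Without values per sample, it cannot be said which neighbours in these orders differ beyond their spread.

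**Figure D2:**
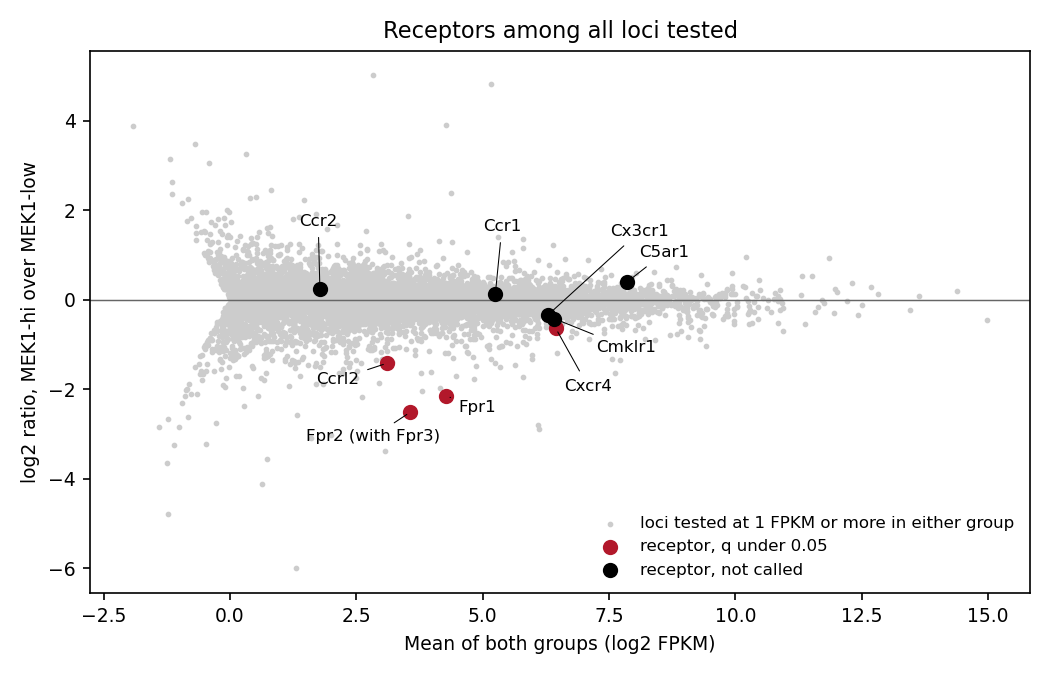
The log2 ratio of MEK1-hi over MEK1-low (y axis) against the mean of both groups in log2 FPKM (x axis) for the 11777 tested loci that reached 1 FPKM in a group and were above 0 in both (grey), with the 9 receptors in red where q is under 0.05 and in black where not. Fpr1 and the Fpr2 locus lie below -2, while Ccr1, Ccr2 and C5ar1 lie above 0.

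Ccr1, Ccr3 and Ccr2 lie close together on chromosome 9, within 151434 bases in GENCODE M21, and none of them was called. Ccr3, a receptor for eotaxins, stood at 2.14 FPKM with MEK1-hi and 2.46 FPKM with MEK1-low exosomes (q = 0.999 in the authors' deposited table). Ccr1l1, a close relative of Ccr1 with 76.0% identity in coding sequence, was under 0.2 FPKM in both groups. Ccrl2 lies on the same chromosome, but 13047464 bases from the start of Ccr2.

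Among other receptors for leukocyte attractants, the list held 37 genes. Fpr3 was left out, being joined to Fpr2, and 13 of the other 36 loci were tested. In the authors' deposited table, 1 rose and 0 fell by Cuffdiff, with 3 higher and 2 lower at an unadjusted p under 0.05. Their median log2 ratio was 0.09. Of all loci tested, 0.751% rose and 1.69% fell, with 3.53% higher and 5.12% lower at that unadjusted threshold. The C3a receptor gene C3ar1 stood at 274.3 FPKM with MEK1-hi and 237.2 FPKM with MEK1-low exosomes (q = 0.931 in the authors' deposited table). C5ar2, the other receptor for C5a, which does not couple to G proteins, stood at 6.63 FPKM with MEK1-hi and 4.15 FPKM with MEK1-low exosomes, just above the threshold (q = 0.0504 in the authors' deposited table, in a locus joined with Gm26473). The receptor gene of platelet-activating factor, Ptafr, stood at 57.1 FPKM with MEK1-hi and 75.9 FPKM with MEK1-low exosomes (q = 0.141 in the authors' deposited table), and Cxcr3 at 0.413 FPKM with MEK1-hi and 1.25 FPKM with MEK1-low exosomes (q = 0.131 in the authors' deposited table). The 23 loci that were not tested reached at most 0.534 FPKM, and 9 of them, the neutrophil receptor gene Cxcr1 included, were listed at 0 in both groups.

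**Figure D3:**
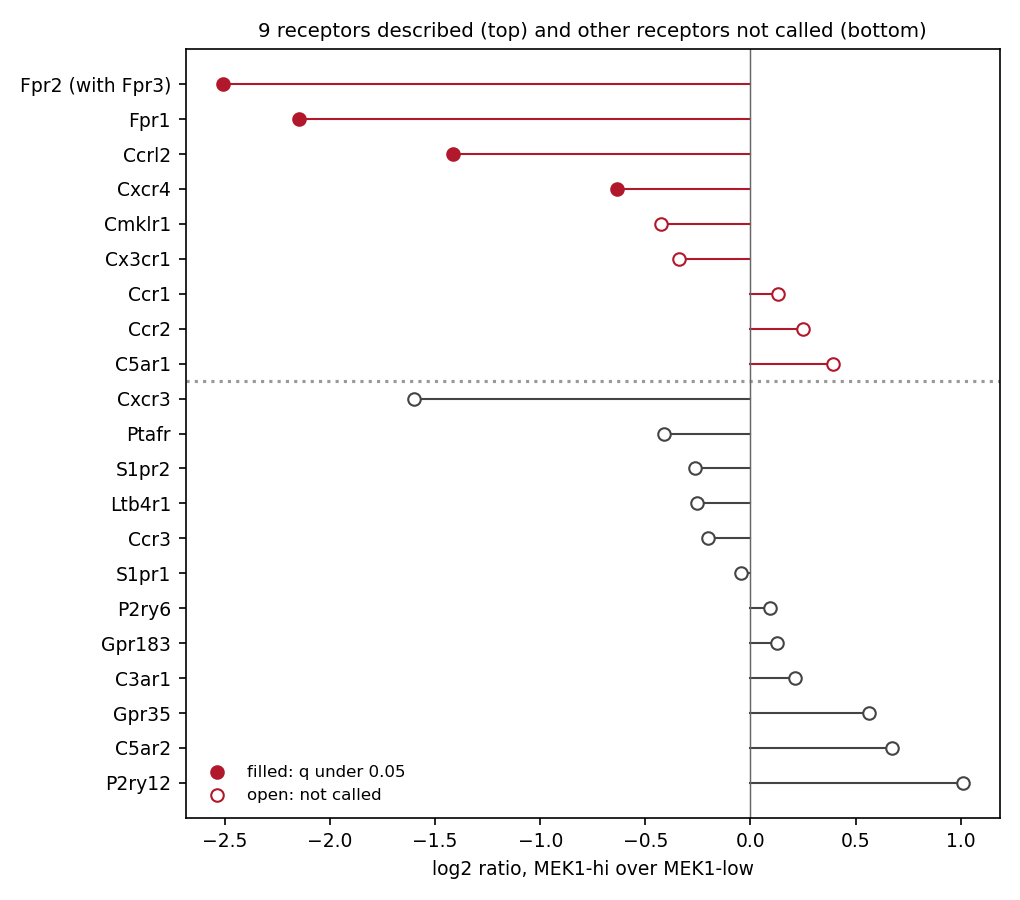
The log2 ratio of MEK1-hi over MEK1-low for the 9 receptor loci (top, red) and 12 other receptor loci that were tested and not called (bottom, dark grey), filled where q is under 0.05 and open where not. Fpr2, Fpr1, Ccrl2 and Cxcr4 are filled on the left, between -2.51 and -0.64.

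Ligand genes went both ways. Of 14 tested of 19 listed, 3 rose (Ccl2, Ccl6 and Ccl7) and 2 fell (Ccl5 and C3) in the authors' deposited table, with a median log2 ratio of 0.04. Of all loci tested, 0.751% rose and 1.69% fell. The other 9 ligand genes were not called, among them Ccl3, Ccl4, Ccl8, Ccl9 and Ccl12. Without regard to a call, 8 of the 14 had a higher and 6 a lower value with MEK1-hi exosomes. Ccl12 was low, at 2.08 FPKM with MEK1-hi and 0.185 FPKM with MEK1-low exosomes (q = 0.999 in the authors' deposited table). Ccl2 and Ccl7, ligands of Ccr2, stood at 47.9 and 75.1 FPKM with MEK1-hi exosomes, against 9.10 and 5.01 FPKM with MEK1-low exosomes, while their receptor gene was not called. Ccl6, a ligand of Ccr1, stood at 63.9 FPKM with MEK1-hi and 24.3 FPKM with MEK1-low exosomes. C3, the source of the ligand of C3ar1, which is not among the receptors described, was at 30.1 FPKM with MEK1-hi and 83.0 FPKM with MEK1-low exosomes (q = 0.00349 in the authors' deposited table). Hc, which encodes complement C5, was at most 0.0110 FPKM.

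The ligand genes of Fpr1 and Fpr2 were not called. Anxa1, which encodes annexin A1, was abundant, at 438.0 FPKM with MEK1-hi and 500.1 FPKM with MEK1-low exosomes (q = 0.970 in the authors' deposited table). Saa3, a serum amyloid A gene, stood at 0.483 FPKM with MEK1-hi and 5.74 FPKM with MEK1-low exosomes, a log2 ratio of -3.57 that did not pass (p = 0.0055, q = 0.147 in the authors' deposited table). Camp, which encodes a cathelicidin, was at 0.0606 FPKM with MEK1-hi and 0.112 FPKM with MEK1-low exosomes and was not tested.

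Of 35 tested genes of receptor signalling and its ending, 2 fell and 0 rose in the authors' deposited Cuffdiff table, with 4 lower and 1 higher at an unadjusted p under 0.05 and a median log2 ratio of -0.06. Of all loci tested, 1.69% fell and 0.751% rose, with 5.12% lower and 3.53% higher at that unadjusted threshold. Fgr, a Src family kinase of phagocytes, was at 36.8 FPKM with MEK1-hi and 63.2 FPKM with MEK1-low exosomes (log2 ratio -0.78, q = 0.00349 in the authors' deposited table). Pik3r5, an adaptor subunit of phosphoinositide 3-kinase gamma, stood at 40.4 FPKM with MEK1-hi and 61.4 FPKM with MEK1-low exosomes (log2 ratio -0.60, q = 0.00636 in the authors' deposited table). Pik3cg, its catalytic partner, was at 19.9 FPKM with MEK1-hi and 22.8 FPKM with MEK1-low exosomes (q = 0.965 in the authors' deposited table). The genes of highest mean level, Gnai2, Gnb2, Rac1 and Gnb1, lay between 268.8 and 405.3 FPKM with MEK1-hi and between 263.2 and 418.0 FPKM with MEK1-low exosomes, and none of these 4 was called, Gnb2 being joined with Epo and Mir6418. Arrb2, the gene of an arrestin, joined with Mir7115, stood at 248.5 FPKM with MEK1-hi and 248.6 FPKM with MEK1-low exosomes (q = 0.999 in the authors' deposited table).

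Formyl peptide receptors and Ccr2 are also carried by neutrophils or monocytes, so the markers of those cells are given beside them. Of 10 neutrophil markers, 3 were tested and none was called by Cuffdiff, with 1 lower at an unadjusted p under 0.05. Their summed level was 237.6 FPKM with MEK1-hi and 252.9 FPKM with MEK1-low exosomes, most of it from Mmp8. Ly6g, S100a9, Mpo, Elane and Retnlg were listed at 0 in both groups, while S100a8 stood at 22.6 FPKM with MEK1-hi and 35.5 FPKM with MEK1-low exosomes. Csf3r stood at 30.8 FPKM with MEK1-hi and 37.8 FPKM with MEK1-low exosomes (q = 0.722 in the authors' deposited Cuffdiff table). Mmp8 was at 184.0 FPKM with MEK1-hi and 179.3 FPKM with MEK1-low exosomes. Of 9 monocyte markers, 7 were tested, with 5 lower and 2 higher in value. By Cuffdiff 1 fell and 0 rose, with 2 lower and 0 higher at an unadjusted p under 0.05. Among all loci tested, 1.69% fell and 0.751% rose, with 5.12% lower and 3.53% higher at that unadjusted threshold. The monocyte list mixes markers of inflammatory monocytes with Spn and Nr4a1, which are known from patrolling monocytes, and it holds Ccr2 itself. Spn was the one called and fell, at 3.59 FPKM with MEK1-hi and 7.35 FPKM with MEK1-low exosomes (q = 0.00887 in the authors' deposited table), and Ly6c2, at 2.23 FPKM with MEK1-hi and 5.83 FPKM with MEK1-low exosomes, was not called (q = 0.0818 in the authors' deposited table). Nr4a1 was at 10.97 FPKM with MEK1-hi and 10.5 FPKM with MEK1-low exosomes and was not called (log2 ratio 0.07, q = 0.999 in the authors' deposited table). Plac8, Chil3 and Vcan, with log2 ratios of -0.28, -1.75 and -0.70, were not called either. Chil3 and Vcan were low, at 0.518 and 1.03 FPKM with MEK1-hi exosomes, against 1.74 and 1.68 FPKM with MEK1-low exosomes. The monocyte markers other than Ccr2 summed to 26.0 FPKM with MEK1-hi and 36.3 FPKM with MEK1-low exosomes. Their part in the lower receptor values was not tested, and fewer cells of a type and less RNA per cell cannot be told apart in such samples. Markers of dendritic cells, of T, NK and B cells, of mast cells and of fibroblasts summed to at most 8.52 FPKM per list and group, and none of those tested was called by Cuffdiff, also at an unadjusted p under 0.05.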

How the data were processed

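RNA was sequenced from 4 samples, 2 per group. Per the labels' protocols, TRIzol RNA with an integrity number above 8 went into a stranded mRNA kit at 750 ng, and paired reads of 100 bp were sequenced. Quality control with FastQC 0.73, and TopHat, Cufflinks, Cuffdiff and build mm10, are listed in the submitters' processing notes. The authors deposited 1 FPKM value per group and locus, a test statistic (a score) and p-values with q-values, per the file headers. The settings, and the samples behind a group value, are not given in the sources used here. The column GFP exo was matched to MEK1-low through the treatment label.

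From these, ratios and counts were computed in Python 3.11.15 with pandas 2.3.3, and coding sequences were aligned with Biopython 1.88. The deposited q equalled a Benjamini-Hochberg adjustment (statsmodels 0.14.6) of the deposited p over tested loci within 5.19e-07, and the readjustment was tested on simulated data. Of 55029 gene identifiers, 99.5% matched a symbol, and all 10 housekeeping genes checked were above 0. Table starts, which count from 0, were shifted by 1. Gene positions are from GENCODE M21 and upstream windows from RefSeq, both of the same build.

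The receptors, lists and motifs were chosen with earlier results of these data known. All 9 receptors were to be named, and of the signalling list those called and the 4 of highest mean. Genes of the receptor and ligand lists at 1 FPKM or more could be named, and only some of them are. Rarres2, Hc, Camp, Cxcl12, Arrb2, Pik3cg, Spn, Ly6c2, Nr4a1, Plac8, Chil3, Vcan, S100a8, Mmp8, Csf3r, Lyz2, Mrc1, Csf1r, Adgre1, the neighbouring genes and untested receptors named fall outside that rule and were chosen after their values were seen. With 2 group values, no likeness between gene patterns was measured. Some genes of the lists are counted but not reported here. Alternatives were other pseudocounts, scalings, thresholds and filters. Since samples are not labelled as separate cultures or animals, p-values may measure technical spread.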

Additional observations from a re-analysis of the deposited data

How the results depend on the processing

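No paired analysis was possible because the table holds 1 value per group and none per sample, and for the same reason no replicate could be left out. The scalings and pseudocounts tried could change only ratios, and the thresholds only calls. Adjusting p over loci at 1 FPKM or more could also change only calls. Keeping only such loci in a list could change the counts and the median of that list. A stricter threshold also could not add a call. Much of the agreement counted next was therefore fixed in advance and says little about robustness. Over 9 alternatives for each of the 9 receptors, 80 of the 81 results kept direction and call, and 1, Cxcr4, was no longer called at an absolute log2 ratio of at least 1. That requirement, by its construction, also took the count of all loci called to 85 lower and 29 higher, beside 214 and 95, that of other receptors called higher to 0, of ligands called lower to 1 and of signalling genes called lower to 0. At q under 0.01, 59 of all loci were higher and 1 ligand was lower. Other receptors called higher numbered 3 at q under 0.1 and 2 with p adjusted over loci at 1 FPKM or more. Medians of the lists moved by no more than 0.1 under the scalings, pseudocounts and filter tried, and equal FPKM totals raised every log2 ratio by 0.04. The unknown depth, and the lack of values per sample, limit all statements to the authors' group values.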

Other observations

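The nearest tested neighbours with a single symbol were looked up beside the receptor genes that fell, and none of these 6 was called (q = 0.999 for each in the authors' deposited Cuffdiff table). Only 2.44% of all loci tested were called, so nothing is read from this count. Beside Fpr1, Lnpep, which encodes an aminopeptidase, lay 251.4 kb away and stood at 19.4 FPKM with MEK1-hi and 17.6 FPKM with MEK1-low exosomes. At higher coordinates, the predicted gene Gm7535 begins 17.1 kb beyond the end of the Fpr2 gene. It thus begins inside the span of the joined locus of Fpr2, 17887824 to 17971677, and does not flank it. Gm7535 stood at 1.42 FPKM with MEK1-hi and 1.70 FPKM with MEK1-low exosomes. Beside Ccrl2, Lrrfip2, 60.1 kb away, stood at 41.2 FPKM with MEK1-hi and 41.9 FPKM with MEK1-low exosomes, and Als2cl, 154.0 kb away, at 3.34 FPKM with MEK1-hi and 4.94 FPKM with MEK1-low exosomes. Beside Cxcr4, the predicted genes Gm6170, 66.7 kb away, and Gm15790, 1204 kb away, stood at 2.61 and 4.60 FPKM with MEK1-hi exosomes, against 2.42 and 4.25 FPKM with MEK1-low exosomes. These genes were taken by position alone, after the receptor values were known.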
